A study of Mus musculus with 24 samples.

Results

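The neocortex of mice carrying LLC tumours was compared with the neocortex of mock-injected mice, gene by gene, in RNA sequencing of whole tissue. The comparison takes the 8 neocortex libraries out of the 24 in the series, namely 4 from LLC mice (replicates 1 to 4) and 4 from control mice (replicates 14 to 17). All were from male C57BL/6J mice (the strain label reads C57BL6/J) aged 4 months. The LLC mice had received LLC cells, which grew for up to about 3 weeks, and the control mice had received a mock injection. No transgene or gene deletion is stated for either group. The labels do not spell out LLC, and the series title speaks of melanoma-induced cachexia, so the tumour is called LLC here. How many animals stand behind each library, which the labels term a biological replicate, is not stated, so the p-values measure the spread between these libraries. Genes with a mean of at least 1 TPM over the 8 libraries were tested, which kept 14485 of 47643 symbols. TPM scales a gene's reads by its length and by the library total.

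Cachexia is the wasting of body mass that accompanies many tumours, driven in part by inflammatory cytokines and glucocorticoids in the circulation. The cortex is shielded from blood by a barrier of endothelial cells joined by tight junctions, wrapped by pericytes and astrocyte endfeet, and circulating signals reach brain cells largely through that wall. The brain makes its own cholesterol, because lipoproteins do not cross the barrier, and oligodendrocytes use much of it for myelin.

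Neocortical markers were high in the libraries and cerebellar markers were low. All 8 neocortical markers, such as Slc17a7, the vesicular glutamate transporter of cortical excitatory neurons, were above 1 TPM in every library, and their summed level was 1410 to 1700 TPM in LLC libraries and 1530 to 1550 TPM in controls. All 5 cerebellar markers stayed under 1 TPM in all 8 libraries. Hippocampal markers summed to 18 to 21 TPM in LLC libraries and 18.8 to 21.6 TPM in controls, and 2 of 5 were under 1 TPM in all 8. Thalamic markers summed to 31.5 to 44 TPM in LLC libraries and 31.4 to 47.1 TPM in controls. Striatal markers were present in every library, at a sum of 406 to 526 TPM in LLC libraries and 468 to 500 TPM in controls. Choroid plexus markers summed to 651 to 2310 TPM in LLC libraries and 281 to 1840 TPM in controls, so these markers varied between libraries within both groups. LLC library 4 stood apart from the other LLC libraries. Its mean absolute log2 difference from the controls was 0.105 over all tested genes, against 0.17, 0.161 and 0.195 for LLC libraries 1 to 3, and each control lay 0.079 to 0.099 from the mean of the other controls. Counts and calls below are from all 8 libraries unless stated. Values without LLC library 4 are given for genes named as not passing that passed without it, and for list counts that it moved by more than 1.5 times. That library was singled out because it lay nearest to the controls, so leaving it out favours larger differences and smaller p-values. Results without it are therefore no independent support. Calls lost without another library are not given gene by gene. Of the called genes named below, 94, 95 and 93 were lost without LLC library 1, LLC library 2 and control library 15.

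Of the genes tested, 1237 (8.54%) differed at an adjusted p under 0.05, which is the threshold for every call below (limma on log2(TPM + 1), Benjamini-Hochberg adjustment over all tested genes). In LLC neocortex 809 genes were higher (5.59% of those tested) and 428 lower (2.95%), so 65.4% of the calls were upward. That split depended on scaling, since median-ratio scaling called 707 higher and 575 lower (55.1% upward), quantile scaling 613 and 517 (54.2%), and removal of the trend with GC content and length 556 and 778 (41.7%). Most changes were small, with a median absolute log2 fold change of 0.33 among called genes and 65 genes beyond a 2-fold change, 60 of them upward. All 4 LLC libraries lay above all controls for 1574 genes (10.9%) and below them for 895 (6.18%). An unadjusted p under 0.05 in limma was found for 4320 of the 14485 genes. Without LLC library 4 the number called was 3834 of 14477, of which 2201 were higher (15.2%) and 1633 lower (11.3%), and 1233 of the 1237 genes were still called, none in the opposite direction. List counts below, with and without LLC library 4, are to be read against the shares over all genes in the same fit. They cover only members that passed the filter, and a gene low in controls can pass it through its LLC values. Of 3830 genes called without LLC library 4 and tested in both fits, LLC library 4 lay beyond all controls on the same side for 1861, within the control range for 1605, and beyond them on the other side for 364. Leaving out LLC library 1, 2 or 3 gave 187, 207 and 496 calls, and leaving out control library 14, 15, 16 or 17 gave 565, 226, 220 and 327. In all 162 genes (1.12%) were called with all libraries and in each of the 8 fits that left out 1 library. Of 168 called genes named below, 67 were called in all 8 of those fits and 62 in at most 2 of them. In bulk tissue, fewer cells of a type and less RNA per cell cannot be told apart, and this holds for every gene below.

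**Figure D1:**
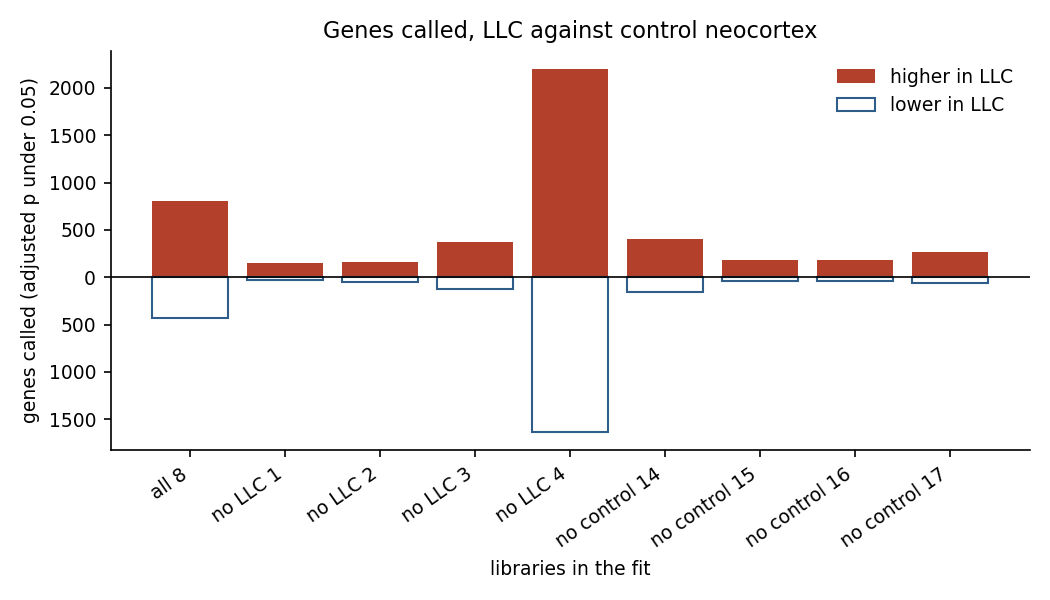
Number of genes called higher (filled bars, upward) and lower (open bars, downward) in LLC than in control neocortex, with all 8 libraries and with each library left out in turn. The count is 1237 with all libraries and 3834 without LLC library 4, the largest of the 9 settings shown.

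Genes of red cells and neutrophils had the largest fold changes. Hbb-bt, an adult beta-globin, was present at 1451, 1799, 1591 and 397 TPM in LLC libraries 1 to 4, against 105, 96.3, 124 and 129.7 TPM in control libraries 14 to 17. All 4 LLC libraries were above all controls, LLC library 4 the least. Its log2 fold change was 3.32 ± 0.40 (adjusted p = 0.00328). Alas2, the first enzyme of haem synthesis in red cell precursors, was at 65.2 TPM in LLC and 4.74 TPM in control libraries (log2 fold change 3.32 ± 0.41). Slc4a1, the band 3 anion exchanger of the red cell membrane, was at 3.06 TPM in LLC and 0.0768 TPM in control libraries (log2 fold change 1.79 ± 0.30). Of 11 erythroid genes with values 8 were tested, and of these 7 rose and none fell. Slc4a1 passed the filter only through its LLC values. The summed haemoglobin level was 11688, 14735, 15090 and 3545 TPM in LLC libraries 1 to 4, against 1257, 1120, 1501 and 1430 TPM in control libraries 14 to 17. The groups did not overlap, and the log2 difference of 2.89 gave p = 0.0286 in an exact two-sided permutation test, the smallest value that 4 against 4 allows.

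Neutrophil genes ordered the LLC libraries differently from haemoglobin. S100a9, a calcium-binding protein stored in neutrophil cytosol, was present at 22.1, 86, 30.7 and 117 TPM in LLC libraries 1 to 4, against 4.85, 1.58, 4.2 and 3.06 TPM in control libraries 14 to 17. It was high in all LLC libraries, including LLC library 4, in which haemoglobin was lowest, and its log2 fold change was 3.63 ± 0.48 (adjusted p = 0.00459). Chil3, a chitinase-like lectin of neutrophils and activated macrophages, was at 5.86 TPM in LLC and 0.17 TPM in control libraries (log2 fold change 2.51 ± 0.18). Retnlg, a resistin-like hormone of neutrophils, was at 8.86 TPM in LLC and 0.558 TPM in control libraries (log2 fold change 2.56 ± 0.29). Of 20 neutrophil genes 11 were tested, and of these 8 rose and none fell. Chil3 and Retnlg were under 1 TPM in controls and passed the filter through their LLC values, which favours risers in such a count. Granule genes of immature neutrophils were uneven, for Ngp had 0.686, 8.78, 1.6 and 6.59 TPM in the LLC libraries and 1.06, 0.52, 0.815 and 0.314 TPM in the controls and did not pass (adjusted p = 0.0973), and elastase (Elane) and myeloperoxidase (Mpo) were under the 1 TPM filter. Among monocyte genes Lyz2, the lysozyme of myeloid cells, was at 42.2 TPM in LLC and 22.6 TPM in control libraries (log2 fold change 0.83 ± 0.16). Ccr2, Ly6c2 and Plac8, which mark inflammatory monocytes, were under the filter. The platelet list had 1 called member of 6, Ppbp, a platelet chemokine precursor, at 1.76 TPM in LLC and 0.284 TPM in control libraries (log2 fold change 1.09 ± 0.14). Ppbp passed the filter only through its LLC values, and without LLC library 4 it was under the filter and so not tested. Ighm, the heavy chain of immunoglobulin M, moved the other way, at 11.4, 13.6, 14.9 and 49.1 TPM in LLC libraries 1 to 4, against 60.8, 42.3, 50.1 and 48.3 TPM in control libraries 14 to 17. LLC libraries 1 to 3 were below all controls and LLC library 4 was among them, so that its log2 fold change was -1.39 ± 0.36 (adjusted p = 0.0452) with all libraries and -1.84 ± 0.12 (adjusted p = 8.61e-06) without LLC library 4. The kappa light chain Igkc had a log2 fold change of -0.82 ± 0.42 and did not pass (adjusted p = 0.219). Of 5 lymphocyte markers, 4 were under 1 TPM in all 8 libraries.

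**Figure D2:**
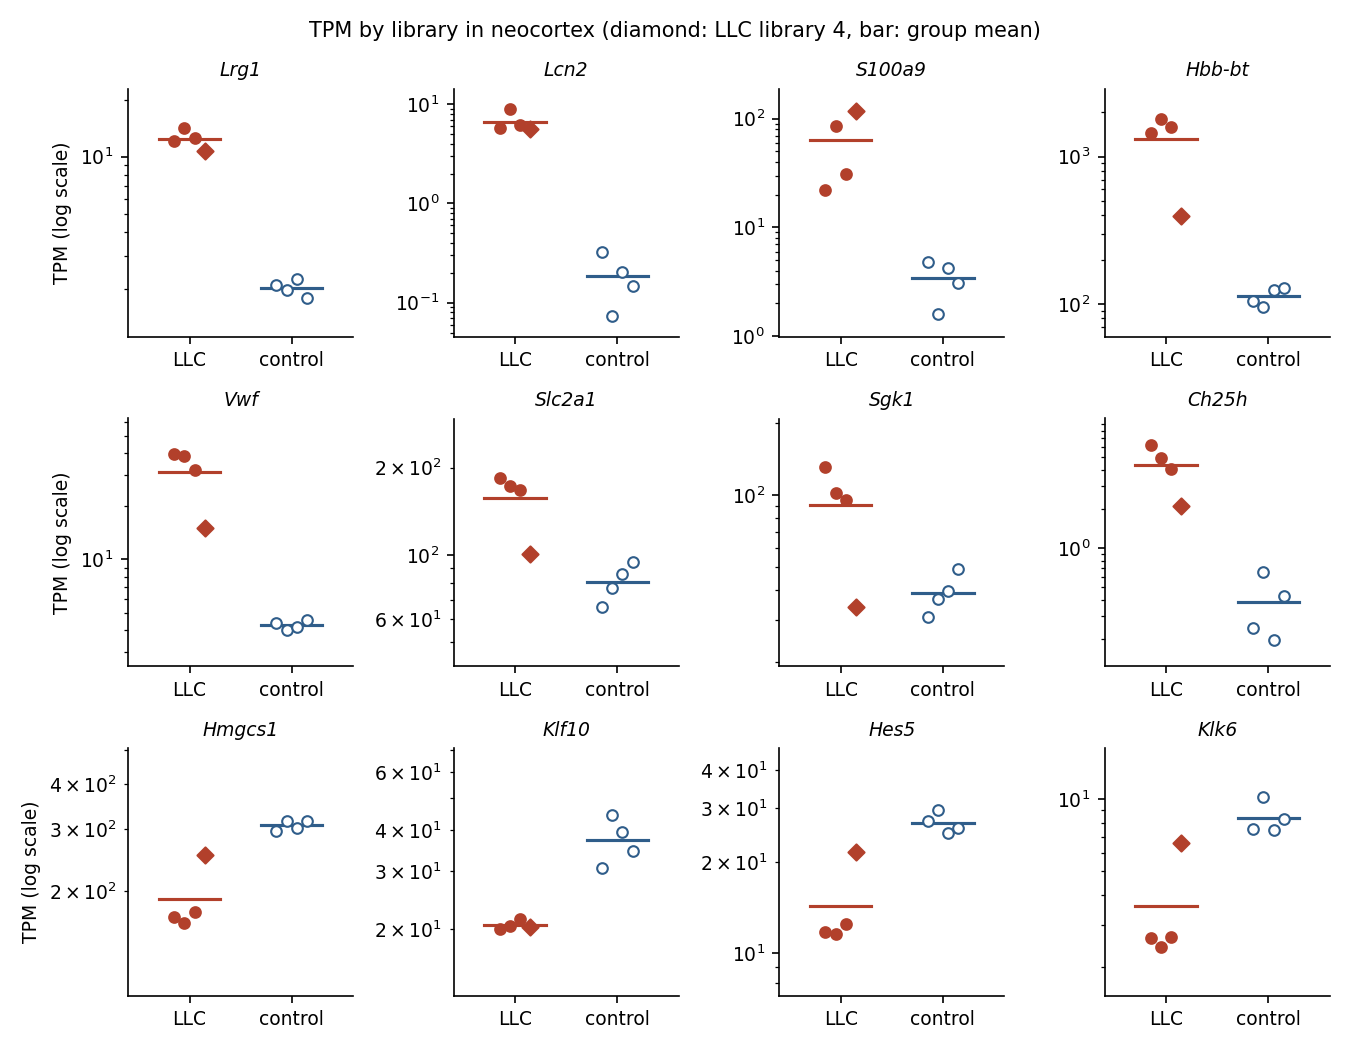
TPM (log axis) of 12 genes in each of the 4 LLC libraries (filled points, left; LLC library 4 as a diamond) and the 4 control libraries (open points, right), with a bar at the mean of each group. Lcn2 and S100a9 were high in every LLC library, whereas Vwf and Sgk1 were lower in LLC library 4 than in the other LLC libraries, and Hmgcs1 and Hes5 were higher in it.

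Most of the secreted acute-phase genes tested were higher in LLC neocortex. Lrg1, a leucine-rich glycoprotein that endothelial cells and hepatocytes secrete in inflammation (chromosome 17, 56119678 to 56122001 in mm10), was present at 12, 14.2, 12.5 and 10.8 TPM in LLC libraries 1 to 4, against 2.12, 1.98, 2.26 and 1.8 TPM in control libraries 14 to 17. The 4 LLC libraries were close to each other and all far above the controls. Its log2 fold change of 2.13 ± 0.09 had the smallest p of all upward calls (adjusted p = 2.76e-06). Lcn2, the siderophore-binding lipocalin 2, known as a feeding-suppressing signal and an acute-phase protein (chromosome 2, 32384633 to 32388252), was present at 5.8, 8.9, 6.14 and 5.59 TPM in LLC libraries 1 to 4, against 0.322, 0.0727, 0.202 and 0.146 TPM in control libraries 14 to 17. It was barely measured in any control and was above 5 TPM in all LLC libraries, with a log2 fold change of 2.67 ± 0.13 (adjusted p = 1.16e-05). Haptoglobin (Hp), which binds free haemoglobin, was at 3.78 TPM in LLC and 0.472 TPM in control libraries (log2 fold change 1.59 ± 0.31), with LLC library 4 the highest. The inter-alpha-trypsin inhibitor chain Itih3, which stabilises hyaluronan, was at 31.5 TPM in LLC and 17.8 TPM in control libraries (log2 fold change 0.76 ± 0.14). Ceruloplasmin (Cp), a copper ferroxidase that astrocytes also carry on their surface, was at 10.1 TPM in LLC and 6.21 TPM in control libraries (log2 fold change 0.61 ± 0.10). Serpina3n, a serine protease inhibitor, was at 22.2 TPM in LLC and 16.4 TPM in control libraries (log2 fold change 0.41 ± 0.07). The secreted glutathione peroxidase Gpx3 was at 16.6 TPM in LLC and 12.8 TPM in control libraries (log2 fold change 0.35 ± 0.08). Of 14 genes on the list 8 were tested, and the rest were under the filter. In all 7 of the 8 rose, with a median log2 fold change of 0.69, against 0.01 over all tested genes. Serping1, the C1 inhibitor, was the exception (0.11 ± 0.12, adjusted p = 0.56). Lcn2 and Hp were under 1 TPM in controls and passed the filter through their LLC values, which favours risers in such a count.

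Of the cytokine axes upstream of such genes, some receptors and feedback genes rose while most ligands were scarcely measured. The interleukin-6 family ligands Il6, Osm, Lif and Il11 were all under the filter, and Il6 was listed at 0.133, 0, 0.161 and 0.0272 TPM in LLC libraries 1 to 4, against 0.107, 0.0523, 0.082 and 0.0263 TPM in control libraries 14 to 17. Cntf and Ctf1, the 2 ligands that were tested, did not pass. Of 12 receptor and kinase genes 2 rose and none fell, against 3 and 1 without LLC library 4. Osmr, the oncostatin M receptor chain, was present at 2.55, 2.88, 2.02 and 2 TPM in LLC libraries 1 to 4, against 1.15, 1.31, 0.992 and 1.4 TPM in control libraries 14 to 17. All LLC libraries were above all controls and the log2 fold change was 0.60 ± 0.11 (adjusted p = 0.0159). Il6ra, the binding chain for interleukin-6, was at 3.61 TPM in LLC and 2.57 TPM in control libraries (log2 fold change 0.37 ± 0.10), with LLC library 4 inside the control range. The transcription factor Stat3 had a log2 fold change of 0.18 ± 0.05 and did not pass with all libraries (adjusted p = 0.0508), but passed without LLC library 4 (0.22 ± 0.05, adjusted p = 0.00945). Downstream, 3 of 11 targets rose. Socs3, the feedback inhibitor of gp130 receptors, was present at 3.84, 3.78, 4.28 and 5.12 TPM in LLC libraries 1 to 4, against 2.79, 2.37, 2.94 and 2.92 TPM in control libraries 14 to 17. The highest of the 8 was LLC library 4, and the log2 fold change was 0.48 ± 0.09 (adjusted p = 0.0198). Il4ra, the interleukin-4 receptor chain, was at 4.51 TPM in LLC and 2.58 TPM in control libraries (log2 fold change 0.62 ± 0.08), and was called in every leave-one-out fit. Cebpd, a transcription factor induced by cytokines and glucocorticoids, was at 11.6 TPM in LLC and 4.08 TPM in control libraries (log2 fold change 1.25 ± 0.23). The immediate targets Junb (-0.60 ± 0.24) and Socs1 (-0.36 ± 0.11) did not pass, and Socs1 was called lower without LLC library 4 (-0.42 ± 0.12, adjusted p = 0.0234).

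The interleukin-1 and tumour necrosis factor axis had the same arrangement of ligands and receptors. Il1b and Tnf, its main ligands, were under the filter, and Il1a did not pass. Il1r1, the signalling receptor for interleukin-1, was present at 5.06, 4.39, 3.63 and 2.92 TPM in LLC libraries 1 to 4, against 1.68, 1.59, 1.71 and 1.83 TPM in control libraries 14 to 17. Every LLC library was above every control, and the log2 fold change was 0.87 ± 0.12 (adjusted p = 0.00668). The TNF receptors rose by less, with Tnfrsf1b at 5.45 TPM in LLC and 3.67 TPM in control libraries (log2 fold change 0.46 ± 0.08), and Tnfrsf1a at 14.1 TPM in LLC and 11.4 TPM in control libraries (log2 fold change 0.28 ± 0.07). Of the nuclear factor kappa B genes Nfkb2, a subunit precursor, was at 2.86 TPM in LLC and 2.18 TPM in control libraries (log2 fold change 0.28 ± 0.07). Nfkbiz, an atypical inhibitor that responds to interleukin-1, was at 3.06 TPM in LLC and 2.26 TPM in control libraries (log2 fold change 0.32 ± 0.09). The classical target Nfkbia, the inhibitor that ends the signal, had a log2 fold change of 0.51 ± 0.16 and did not pass with all libraries (adjusted p = 0.0785), but passed without LLC library 4 (0.67 ± 0.12, adjusted p = 0.00341). In total 5 of 14 members rose and none fell. In the prostaglandin pathway, which relays cytokine signals across the vessel wall, the inducible synthase Ptgs2 had a log2 fold change of 0.12 ± 0.09 and did not pass, while Abcc4, an exporter of prostaglandin E2 and of drugs, was at 10.7 TPM in LLC and 7.37 TPM in control libraries (log2 fold change 0.48 ± 0.10).

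Chemokine and interferon genes moved in both directions. Cxcl12, the ligand of CXCR4 that retains leukocytes at vessels, was present at 62.3, 67.7, 50.9 and 40.9 TPM in LLC libraries 1 to 4, against 27, 25.8, 27.1 and 27 TPM in control libraries 14 to 17. The controls were within 2 TPM of each other, and all LLC libraries were above them, with a log2 fold change of 1.00 ± 0.13 (adjusted p = 0.00387). Ackr1, the chemokine-binding Duffy receptor of venules, was at 72.1 TPM in LLC and 56.6 TPM in control libraries (log2 fold change 0.34 ± 0.06). Cx3cl1, the neuronal fractalkine that binds microglia, was at 467 TPM in LLC and 538 TPM in control libraries (log2 fold change -0.21 ± 0.05). Of 21 interferon-stimulated genes 4 rose and 2 fell. The risers were Rsad2 (viperin) and the membrane restriction factors Ifitm1, Ifitm2 and Ifitm3, of which Ifitm2 was at 51.5 TPM in LLC and 32 TPM in control libraries (log2 fold change 0.67 ± 0.07), and was called in every leave-one-out fit. The guanylate-binding protein Gbp3 was at 3.01 TPM in LLC and 4.77 TPM in control libraries (log2 fold change -0.52 ± 0.12). Tetherin (Bst2) was at 8.88 TPM in LLC and 11.5 TPM in control libraries (log2 fold change -0.34 ± 0.08). The widely used interferon targets Ifit1 (-0.25 ± 0.15) and Isg15 (0.28 ± 0.15) did not pass. Complement component C4b was at 23.8 TPM in LLC and 14.6 TPM in control libraries (log2 fold change 0.65 ± 0.13). The anaphylatoxin receptor C5ar1, found on neutrophils and microglia, was at 1.89 TPM in LLC and 0.748 TPM in control libraries (log2 fold change 0.73 ± 0.09). C1ra, a protease of the classical pathway, had a log2 fold change of 0.38 ± 0.14 with all libraries, which did not pass, and 0.48 ± 0.13 without LLC library 4, which did (adjusted p = 0.0248). Jak3, the kinase of the common gamma chain receptors, was at 4.5 TPM in LLC and 2.48 TPM in control libraries (log2 fold change 0.66 ± 0.07). Ifi30, a lysosomal thiol reductase of antigen processing, was at 10.8 TPM in LLC and 5.91 TPM in control libraries (log2 fold change 0.77 ± 0.08). Both were called in every leave-one-out fit. 

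**Figure D3:**
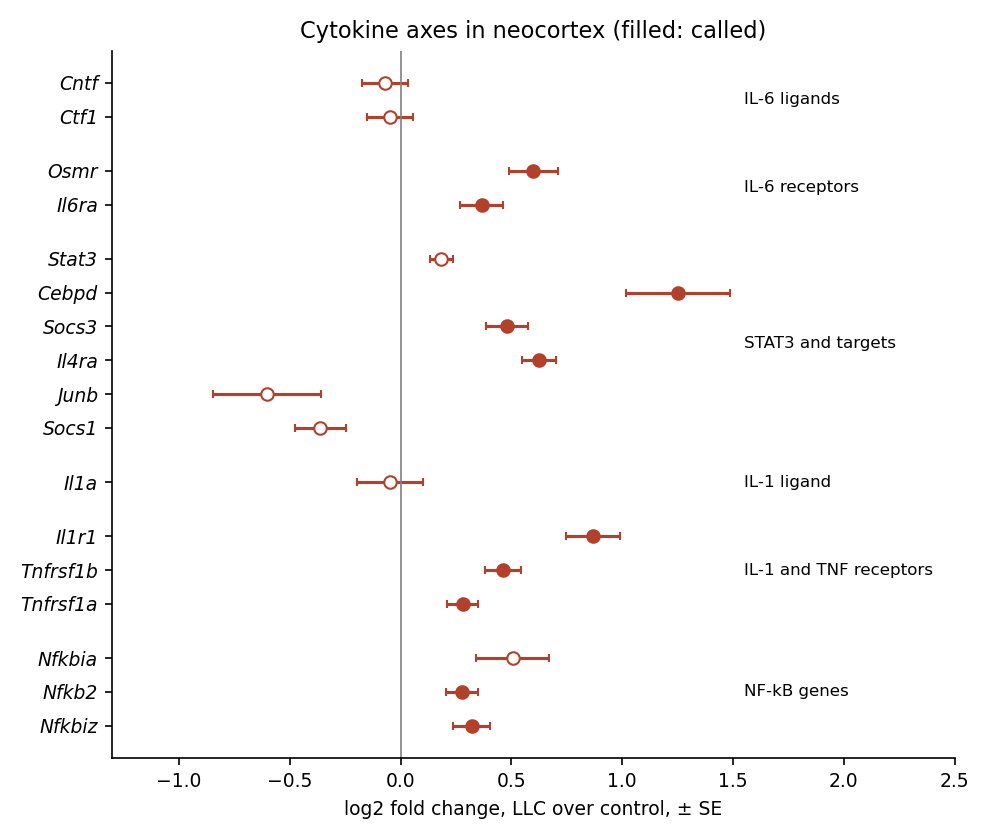
Log2 fold change of LLC over control neocortex with its standard error for ligands, receptors and targets of the interleukin-6, interleukin-1 and TNF axes, with all 8 libraries (filled if called, open if not). Receptors such as Il1r1 and Osmr and targets such as Cebpd and Socs3 lie to the right of 0, and the 3 ligands that passed the filter lie within 0.1 of it.

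The vessel wall showed a broad rise. Vwf, the von Willebrand factor of endothelial storage granules (chromosome 6, 125546774 to 125686679), was present at 39.4, 38.4, 32.3 and 15 TPM in LLC libraries 1 to 4, against 4.34, 3.97, 4.14 and 4.52 TPM in control libraries 14 to 17. LLC library 4 lay between the controls and the other LLC libraries, and the log2 fold change was 2.54 ± 0.25 (adjusted p = 0.00119) with it and 2.84 ± 0.07 without it. Icam1, the adhesion molecule that leukocytes bind, was present at 10.2, 9.61, 8.54 and 5.15 TPM in LLC libraries 1 to 4, against 2.56, 3.18, 2.64 and 2.69 TPM in control libraries 14 to 17. It had the same order, with LLC library 4 the lowest of the LLC libraries, and a log2 fold change of 1.28 ± 0.16 (adjusted p = 0.00412). Icam2 was at 7.15 TPM in LLC and 3.58 TPM in control libraries (log2 fold change 0.85 ± 0.15). Pecam1, the platelet and endothelial junction molecule, was at 29.6 TPM in LLC and 14.8 TPM in control libraries (log2 fold change 0.94 ± 0.12). Ctla2a, a cysteine protease inhibitor that endothelial cells express, was at 33.1 TPM in LLC and 8.24 TPM in control libraries (log2 fold change 1.85 ± 0.18). Among 16 adhesion and clotting genes 8 rose and none fell. Vcam1 had a log2 fold change of -0.14 ± 0.06 and did not pass (adjusted p = 0.152), and the selectins Sele and Selp were under the filter.

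Barrier transporters and junction proteins were among the genes that rose. Slc2a1, the glucose transporter GLUT1 of the barrier endothelium (chromosome 4, 119108711 to 119137983), was present at 184, 173, 167 and 101 TPM in LLC libraries 1 to 4, against 66.3, 77, 86.3 and 94.3 TPM in control libraries 14 to 17. LLC library 4 was only just above the highest control, and the log2 fold change was 0.92 ± 0.18 (adjusted p = 0.0187) with it and 1.11 ± 0.10 without it. Slc38a5, a glutamine carrier, was at 6.02 TPM in LLC and 3.04 TPM in control libraries (log2 fold change 0.77 ± 0.14). Slc6a6, the taurine carrier, was at 91.8 TPM in LLC and 64.6 TPM in control libraries (log2 fold change 0.49 ± 0.08). Slc16a1, the lactate and ketone body carrier MCT1, was at 35.4 TPM in LLC and 25.9 TPM in control libraries (log2 fold change 0.44 ± 0.09). The drug efflux pump Abcb1a was at 32.7 TPM in LLC and 25.1 TPM in control libraries (log2 fold change 0.37 ± 0.06). Of the junction genes Cldn5, the claudin that seals the barrier, was at 105 TPM in LLC and 66.9 TPM in control libraries (log2 fold change 0.65 ± 0.12). Lsr, the tricellular junction protein angulin-1, was at 16 TPM in LLC and 8.32 TPM in control libraries (log2 fold change 0.86 ± 0.10). Ocln, the tight junction protein occludin, did not pass (0.17 ± 0.07), nor did Mfsd2a, the carrier of omega-3 lysolipids (0.57 ± 0.18), or Plvap, which marks leaky endothelium (0.35 ± 0.12). All 3 were called higher once LLC library 4 was left out, Ocln at 0.23 ± 0.05 (adjusted p = 0.013), Mfsd2a at 0.75 ± 0.12 (adjusted p = 0.00237) and Plvap at 0.43 ± 0.12 (adjusted p = 0.0221). With all libraries 10 of 28 barrier genes rose and 1 fell, and without LLC library 4 these counts were 17 and 2. Slc52a3, a riboflavin carrier outside that list, was present at 5.18, 5.06, 5.32 and 5.13 TPM in LLC libraries 1 to 4, against 1.83, 1.77, 1.78 and 2.12 TPM in control libraries 14 to 17. It was nearly equal in the 4 LLC libraries, LLC library 4 included, with a log2 fold change of 1.10 ± 0.07 (adjusted p = 4.07e-05). Over all solute carriers 20 of 240 rose and 3 fell, where 5.59% of all genes rose and 2.95% fell. With LLC library 4 left out 45 rose and 22 fell.

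Many angiogenic ligands and receptors rose. Vegfa, the main vascular endothelial growth factor, was present at 82.9, 82.8, 79.4 and 50.5 TPM in LLC libraries 1 to 4, against 42.6, 44.6, 45.6 and 44 TPM in control libraries 14 to 17. LLC libraries 1 to 3 were far above the controls and LLC library 4 just above them, for a log2 fold change of 0.70 ± 0.14 (adjusted p = 0.0188). Its receptor Flt1 was at 41.4 TPM in LLC and 22.3 TPM in control libraries (log2 fold change 0.85 ± 0.11). Kdr, its other main receptor, was at 14.5 TPM in LLC and 6.17 TPM in control libraries (log2 fold change 1.09 ± 0.15). Angpt2, the antagonist ligand that loosens the vessel wall, was at 4.11 TPM in LLC and 1.15 TPM in control libraries (log2 fold change 1.16 ± 0.26). Its receptor Tek was at 14.7 TPM in LLC and 10.8 TPM in control libraries (log2 fold change 0.42 ± 0.07). Adrenomedullin (Adm), a vasodilator peptide, was present at 20.8, 19.4, 14.8 and 4.53 TPM in LLC libraries 1 to 4, against 2.77, 3.22, 3.57 and 3.12 TPM in control libraries 14 to 17. Here LLC library 4 was nearer to the controls than to the other LLC libraries, and the log2 fold change was 1.76 ± 0.36 with it and 2.20 ± 0.11 without it. Its receptor partner Ramp2 was at 15.8 TPM in LLC and 10.8 TPM in control libraries (log2 fold change 0.50 ± 0.10). Nos3, the endothelial nitric oxide synthase, was at 10.6 TPM in LLC and 6.51 TPM in control libraries (log2 fold change 0.64 ± 0.09). Endothelin-1 (Edn1) was at 6.83 TPM in LLC and 2.92 TPM in control libraries (log2 fold change 0.96 ± 0.21). LLC library 4, at 3.78 TPM, was inside the control range for Edn1, which was called in 2 of the 8 leave-one-out fits. The endothelin receptor Ednrb, which astrocytes carry, was at 30.2 TPM in LLC and 41.6 TPM in control libraries (log2 fold change -0.46 ± 0.09). In all 13 of 22 members rose and 1 fell, with a median log2 fold change of 0.46.

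The rise was uneven within signalling pathways. Of the BMP and TGF-beta genes the endothelial receptor Acvrl1 was at 19.7 TPM in LLC and 13.2 TPM in control libraries (log2 fold change 0.54 ± 0.07). Its co-receptor endoglin (Eng) was at 34 TPM in LLC and 18.6 TPM in control libraries (log2 fold change 0.82 ± 0.12). The inhibitory Smad6 was at 4.53 TPM in LLC and 1.7 TPM in control libraries (log2 fold change 1.01 ± 0.16). The BMP target Id1 was at 39.7 TPM in LLC and 26.7 TPM in control libraries (log2 fold change 0.55 ± 0.12). Their relatives Id2 (0.08 ± 0.06), Id3 (0.06 ± 0.05) and Smad7 (0.09 ± 0.08) did not pass. Of the Notch genes Notch4, the endothelial receptor, was at 5.29 TPM in LLC and 2.34 TPM in control libraries (log2 fold change 0.89 ± 0.17). The ligand Dll4 was at 3.77 TPM in LLC and 2.16 TPM in control libraries (log2 fold change 0.58 ± 0.16). Hes5, a Notch target of astrocytes and progenitors, moved the opposite way, at 11.7, 11.6, 12.5 and 21.5 TPM in LLC libraries 1 to 4, against 27.4, 29.6, 24.8 and 25.8 TPM in control libraries 14 to 17. The LLC library closest to the controls was number 4, and the log2 fold change was -0.91 ± 0.16 (adjusted p = 0.0157). Gkn3, a gastrokine that marks arterial endothelial cells in mouse brain, also fell, at 3.62, 3.35, 5.33 and 4.63 TPM in LLC libraries 1 to 4, against 8.43, 8.83, 11.6 and 10.4 TPM in control libraries 14 to 17. All LLC libraries were below all controls and the log2 fold change was -1.05 ± 0.13 (adjusted p = 0.00348).

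Matrix and mural cell genes were also higher. Col4a1, a type IV collagen chain of the basement membrane, was at 31.7 TPM in LLC and 16.9 TPM in control libraries (log2 fold change 0.86 ± 0.10). Its partner chain Col4a2 was at 32.2 TPM in LLC and 20.5 TPM in control libraries (log2 fold change 0.63 ± 0.05). Fibronectin (Fn1) was at 33.5 TPM in LLC and 16 TPM in control libraries (log2 fold change 1.01 ± 0.12). Sparc, a matrix glycoprotein of endothelial cells and microglia, was present at 449, 422, 409 and 231 TPM in LLC libraries 1 to 4, against 179, 191, 174 and 172 TPM in control libraries 14 to 17. Of 14 basement membrane genes 8 rose and none fell. Of 15 pericyte and smooth muscle genes 7 rose. They included Abcc9 and Kcnj8, the subunits of the pericyte ATP-sensitive potassium channel, with Abcc9 at 10.6 TPM in LLC and 4.55 TPM in control libraries (log2 fold change 1.02 ± 0.17) and Kcnj8 at 10.2 TPM in LLC and 4.93 TPM in control libraries (log2 fold change 0.87 ± 0.21). The smooth muscle myosin Myh11 had a log2 fold change of 0.21 ± 0.08 and did not pass. Several other genes with endothelial expression were called in every leave-one-out fit. Igfbp7, a secreted insulin-like growth factor binding protein of brain capillaries, was present at 78.4, 80.9, 74.3 and 72.9 TPM in LLC libraries 1 to 4, against 41.9, 37.3, 44.1 and 40.2 TPM in control libraries 14 to 17. The LLC libraries differed little among themselves, and its log2 fold change of 0.89 ± 0.06 (adjusted p = 4.07e-05) was nearly the same without LLC library 4 (0.92 ± 0.06). Tgm2, a crosslinking transglutaminase, was at 19 TPM in LLC and 9.82 TPM in control libraries (log2 fold change 0.88 ± 0.05). Podxl, an apical sialomucin, was at 39 TPM in LLC and 24.4 TPM in control libraries (log2 fold change 0.65 ± 0.07). The matrix protein Vwa1 was at 33.3 TPM in LLC and 21.8 TPM in control libraries (log2 fold change 0.59 ± 0.06). The actin-binding Tagln2 was at 24 TPM in LLC and 14.6 TPM in control libraries (log2 fold change 0.68 ± 0.06). Tmem252, for which no role is given here, was among the larger rises, at 9.28 TPM in LLC and 1.14 TPM in control libraries (log2 fold change 2.20 ± 0.24). Ly6a, a surface protein of mouse brain endothelium, was at 134 TPM in LLC and 49.8 TPM in control libraries (log2 fold change 1.42 ± 0.16). Ly6c1, a relative on the same cells, was at 122 TPM in LLC and 53.2 TPM in control libraries (log2 fold change 1.16 ± 0.16). The summed level of 5 endothelial markers was 224 to 328 TPM in LLC libraries and 144 to 173 TPM in controls, with none of them at 0, and the part of this in the results on vessel genes was not tested.

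**Figure D4:**
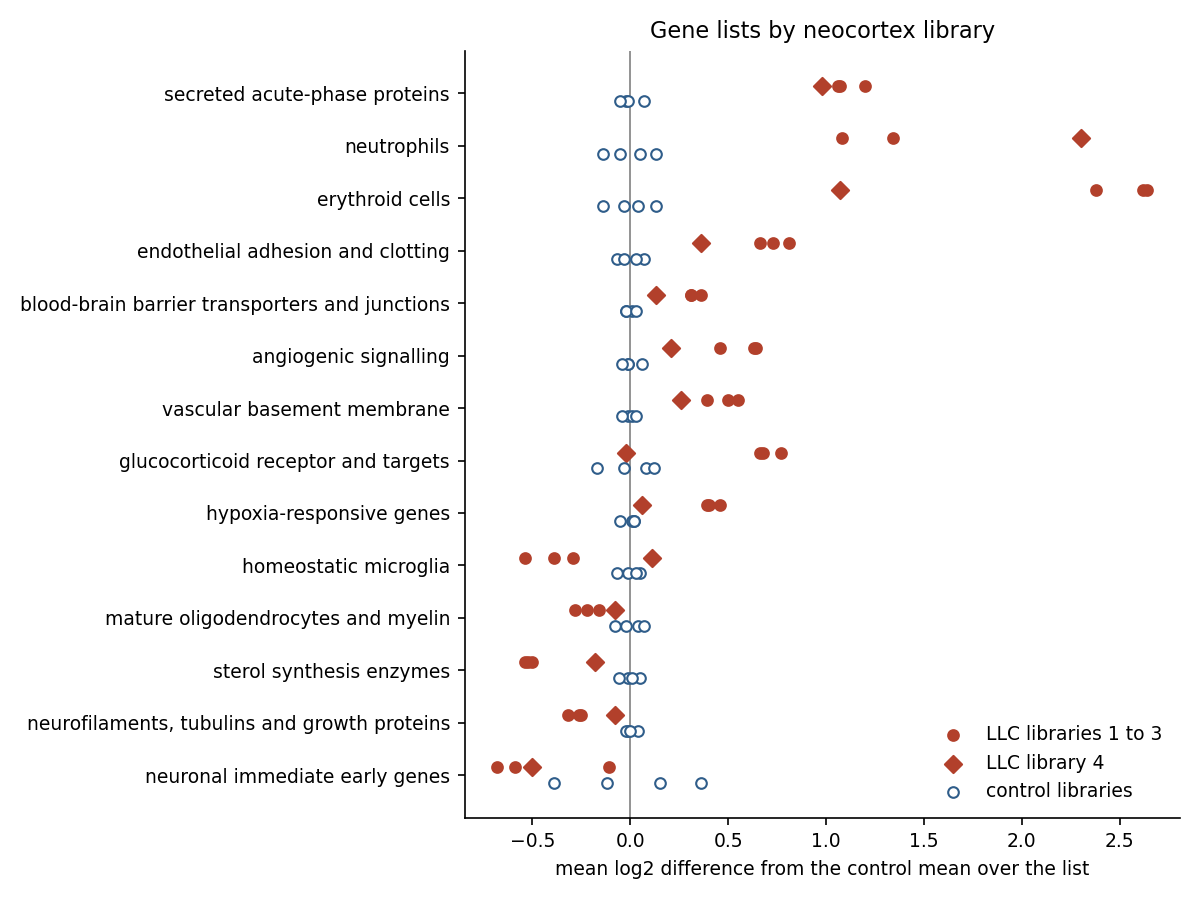
Mean log2 difference from the control mean over the tested members of 14 gene lists, in each of the 4 LLC libraries (filled points, LLC library 4 as a diamond) and the 4 control libraries (open points). LLC library 4 lies nearer to the controls than LLC libraries 1 to 3 for most vascular, glucocorticoid and sterol lists, and with them for acute-phase proteins and neutrophil genes.

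Glucocorticoid-responsive genes separated LLC libraries 1 to 3 from LLC library 4. Over 29 tested members the mean log2 difference from the control mean was 0.77, 0.68, 0.66 and -0.02 in LLC libraries 1 to 4, against -0.17, -0.03, 0.08 and 0.12 in control libraries 14 to 17. Here LLC libraries 1 to 3 were above all controls and LLC library 4 lay among them. Sgk1, a serum- and glucocorticoid-induced kinase (chromosome 10, 21882184 to 21999903), was present at 131, 102, 94.8 and 34.1 TPM in LLC libraries 1 to 4, against 30.7, 36.8, 39.7 and 49 TPM in control libraries 14 to 17. It did not pass with all libraries (log2 fold change 1.06 ± 0.34, adjusted p = 0.0766) and passed without LLC library 4 (1.47 ± 0.14, adjusted p = 1.16e-04). The same held for Fkbp5, a chaperone of the receptor and a feedback target, at 37.6, 32.2, 39.3 and 15.4 TPM in LLC libraries 1 to 4, against 14.1, 15.9, 18.1 and 19.5 TPM in control libraries 14 to 17. Its log2 fold change was 0.77 ± 0.25 (adjusted p = 0.074) with LLC library 4 and 1.07 ± 0.10 (adjusted p = 1.01e-04) without it. Plin4, a lipid droplet protein, had 19.3, 13.1, 23.1 and 1.53 TPM in the LLC libraries and 1.12, 1.33, 3.44 and 4.66 TPM in the controls, and passed only in the fit without LLC library 4 among the 9 fits with all or all but 1 library (log2 fold change 2.51 ± 0.33, adjusted p = 6.04e-04). With all libraries 8 members rose and none fell, and without LLC library 4 22 rose and none fell. Among those called with all libraries, the phenol sulfotransferase Sult1a1 was at 35.8 TPM in LLC and 11.6 TPM in control libraries (log2 fold change 1.48 ± 0.27). The growth arrest protein Ddit4 (REDD1), an inhibitor of mTORC1, was at 97.5 TPM in LLC and 48.1 TPM in control libraries (log2 fold change 0.92 ± 0.24). LLC library 4, at 49.9 TPM, was inside the control range for Ddit4, which was called in 1 of the 8 leave-one-out fits. The receptors themselves, Nr3c1 (-0.08 ± 0.04) and Nr3c2 (0.07 ± 0.04), did not pass. Nor with all libraries did Tsc22d3, the leucine zipper GILZ (0.30 ± 0.15), which passed without LLC library 4 (0.43 ± 0.12, adjusted p = 0.027).

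Promoter sequence was read for this list because its members moved together across libraries. The windows run from 250 bases before to 50 after the annotated start, from RefSeq on GRCm38.p6, and 26 of 29 tested members had one. The motif searched was the glucocorticoid response element written as GNACA and TGTNC with 3 bases between them, on both strands. It was found in 3 of those 26 windows (11.5%) and in 42 of 10806 windows of tested genes (0.389%). The list was made of the receptor's known targets, so a share above that of all genes is no result about LLC. Map3k6, a stress-activated kinase, was at 4.68 TPM in LLC and 1.99 TPM in control libraries (log2 fold change 0.89 ± 0.20) and was called. Mt1, the metal-binding metallothionein 1, was at 765 TPM in LLC and 526 TPM in control libraries (log2 fold change 0.53 ± 0.11) and was called. Sgk1 was not called with all libraries. The stretches follow with the matched bases in capitals, 5′ to 3′ on the gene's strand, at chr10:21993667-21993749, plus strand for Sgk1, chr4:133240602-133240684, plus strand for Map3k6 and chr8:94178960-94179042, plus strand for Mt1. A match is a match of letters, and absence from a window says nothing of sites elsewhere. In all 6 motifs were searched, each in 1 list. The STAT site, written as TTCC and GGAA with 1 base of any kind between them, was in 0 of 6 windows of the acute-phase genes and in 166 of 10806 windows (1.54%). The metal response core TGCNCNC was in 10 of 10 windows of the metallothionein and zinc genes and in 7065 of 10806 (65.4%). The cAMP response element TGACGTCA was in 2 of 16 windows of the immediate early genes, the called ones having no window, and in 386 of 10806 (3.57%).
Sgk1: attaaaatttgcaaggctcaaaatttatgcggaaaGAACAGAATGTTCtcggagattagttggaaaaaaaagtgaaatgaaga
Map3k6: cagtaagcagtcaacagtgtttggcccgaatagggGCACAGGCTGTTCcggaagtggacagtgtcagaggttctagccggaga
Mt1: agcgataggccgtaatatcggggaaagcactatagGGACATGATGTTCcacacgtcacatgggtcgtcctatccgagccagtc

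Other hormone and energy-sensing genes were mixed. Dio2, the astrocyte deiodinase that makes active thyroid hormone (chromosome 12, 90724552 to 90738438), was present at 18.7, 23.1, 19.7 and 36.4 TPM in LLC libraries 1 to 4, against 41.5, 47.5, 43.8 and 53.9 TPM in control libraries 14 to 17. All LLC libraries were below all controls, LLC library 4 the least so, and the log2 fold change was -0.95 ± 0.18 (adjusted p = 0.0176). The thyroid hormone receptor Thra was at 524 TPM in LLC and 425 TPM in control libraries (log2 fold change 0.29 ± 0.07). Its partner Rxra was at 25.9 TPM in LLC and 20 TPM in control libraries (log2 fold change 0.35 ± 0.08). Klf9 (0.19 ± 0.11) and Hr (0.07 ± 0.06), targets of the hormone, did not pass, and Klf9 was called higher without LLC library 4 (0.32 ± 0.06, adjusted p = 0.00459). Klf10, a zinc finger factor induced by TGF-beta (chromosome 15, 38291463 to 38300706), was present at 20.1, 20.4, 21.5 and 20.3 TPM in LLC libraries 1 to 4, against 30.7, 44.5, 39.4 and 34.6 TPM in control libraries 14 to 17. LLC library 4 was level with the other LLC libraries here, and the log2 fold change of -0.81 ± 0.09 had the smallest p of the downward calls made in every leave-one-out fit (adjusted p = 0.00278). Txnip, a glucose-induced thioredoxin inhibitor, was at 40.2 TPM in LLC and 21.3 TPM in control libraries (log2 fold change 0.83 ± 0.18). The insulin receptor Insr was at 26.7 TPM in LLC and 22.5 TPM in control libraries (log2 fold change 0.24 ± 0.04). The insulin-like growth factor binding proteins moved apart, with Igfbp3 at 17.2 TPM in LLC and 8.38 TPM in control libraries (log2 fold change 0.89 ± 0.23) and Igfbp2 at 32.4 TPM in LLC and 50.8 TPM in control libraries (log2 fold change -0.64 ± 0.13). The atrophy ligase Fbxo32 (-0.08 ± 0.07), known from wasting muscle, did not pass, and Trim63 was under the filter. The stress factor Atf4 was at 149 TPM in LLC and 200.0 TPM in control libraries (log2 fold change -0.43 ± 0.09). Of 20 genes of its response 2 fell and none rose, and without LLC library 4 5 fell and 1 rose. Of 19 clock genes the activator Npas2 was at 31.9 TPM in LLC and 26 TPM in control libraries (log2 fold change 0.29 ± 0.06). The output factor Dbp was at 108 TPM in LLC and 144 TPM in control libraries (log2 fold change -0.40 ± 0.08). The rest did not pass, while 4 rose and 2 fell without LLC library 4. Over all genes 5.59% rose and 2.95% fell with all libraries, and 15.2% and 11.3% without LLC library 4. Of 19 hypoxia-responsive genes 5 rose, and without LLC library 4 9. Among them were Adm, Vegfa and Slc2a1 above and Angptl4, a lipoprotein lipase inhibitor, at 2.65 TPM in LLC and 1.03 TPM in control libraries (log2 fold change 0.83 ± 0.14). The glycolytic genes Ldha (0.03 ± 0.04) and Pdk1 (0.07 ± 0.04) did not pass.

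Genes of cholesterol synthesis fell along most of the pathway. Hmgcs1, which makes HMG-CoA (chromosome 13, 119690379 to 119708260), was present at 169, 163, 175 and 253 TPM in LLC libraries 1 to 4, against 296, 315, 301 and 317 TPM in control libraries 14 to 17. LLC libraries 1 to 3 were within 12 TPM of each other, LLC library 4 lay between them and the controls, and the log2 fold change was -0.71 ± 0.12 (adjusted p = 0.0112). Further down the pathway the decarboxylase Mvd was at 18.1 TPM in LLC and 30.2 TPM in control libraries (log2 fold change -0.73 ± 0.14). The isomerase Idi1 was at 35.6 TPM in LLC and 58.4 TPM in control libraries (log2 fold change -0.73 ± 0.13). Squalene epoxidase (Sqle) was at 25.1 TPM in LLC and 36.8 TPM in control libraries (log2 fold change -0.55 ± 0.09). After ring closure the lanosterol demethylase Cyp51 was present at 29, 30.3, 28.9 and 39.3 TPM in LLC libraries 1 to 4, against 47.7, 56.8, 52 and 52.6 TPM in control libraries 14 to 17. Again LLC library 4 lay between the other LLC libraries and the controls, and the log2 fold change was -0.71 ± 0.09 (adjusted p = 0.00459). Msmo1, the C4-methylsterol oxidase, was at 28 TPM in LLC and 45.9 TPM in control libraries (log2 fold change -0.72 ± 0.13). Dhcr7, the reductase of 7-dehydrocholesterol, was at 16.4 TPM in LLC and 23.9 TPM in control libraries (log2 fold change -0.53 ± 0.12). Of 21 enzymes 15 fell and none rose, with a median log2 fold change of -0.39, and without LLC library 4 19 fell with a median of -0.46. The mean over the list was -0.50, -0.54, -0.52 and -0.18 in LLC libraries 1 to 4, against -0.01, 0.05, -0.06 and 0.01 in control libraries 14 to 17.

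**Figure D5:**
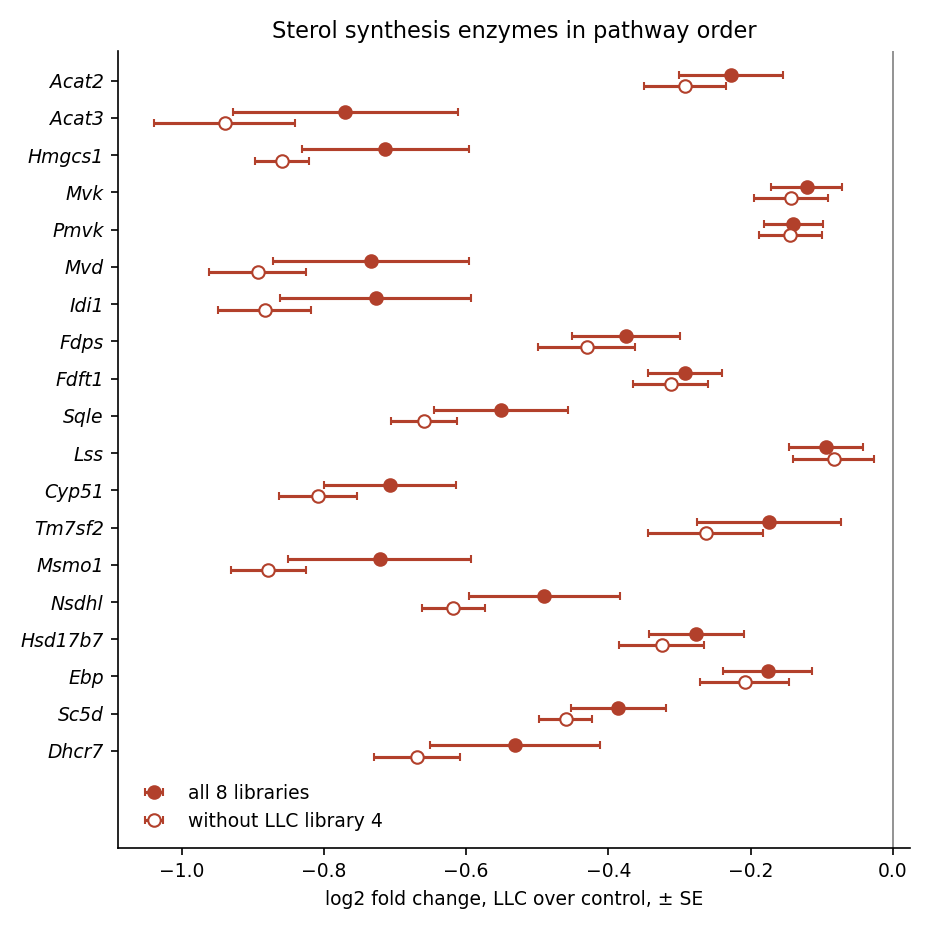
Log2 fold change of LLC over control neocortex with its standard error for 19 of the 21 sterol synthesis enzymes in pathway order, with all 8 libraries (filled) and without LLC library 4 (open). All values lie below 0, and those without LLC library 4 lie further from 0 for most enzymes.

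Regulators of the pathway were split. Srebf2, the transcription factor that activates sterol genes, was present at 114, 107, 114 and 125 TPM in LLC libraries 1 to 4, against 136, 137, 134 and 136 TPM in control libraries 14 to 17. The change was small and separated all libraries, with a log2 fold change of -0.24 ± 0.04 (adjusted p = 0.016). Its relative Srebf1, which drives fatty acid genes, moved upward, at 38.3 TPM in LLC and 29.6 TPM in control libraries (log2 fold change 0.36 ± 0.09). Insig1, which retains the activating complex in the endoplasmic reticulum, was at 68.1 TPM in LLC and 92.6 TPM in control libraries (log2 fold change -0.44 ± 0.11). The sterol carrier Stard4 was at 19.5 TPM in LLC and 24.9 TPM in control libraries (log2 fold change -0.34 ± 0.07). On the export side, Abca1, which loads cholesterol on apolipoproteins, was at 21.8 TPM in LLC and 16.2 TPM in control libraries (log2 fold change 0.40 ± 0.09). Clusterin (Clu) was at 638 TPM in LLC and 564 TPM in control libraries (log2 fold change 0.18 ± 0.03). Apoe (-0.08 ± 0.05) and the neuronal 24-hydroxylase Cyp46a1 (-0.06 ± 0.04) did not pass. Ch25h, which makes 25-hydroxycholesterol, an inhibitor of sterol synthesis (chromosome 19, 34473778 to 34475164), was present at 6.21, 4.94, 4.05 and 2.1 TPM in LLC libraries 1 to 4, against 0.241, 0.659, 0.197 and 0.426 TPM in control libraries 14 to 17. No control reached 1 TPM and every LLC library exceeded 2 TPM, with a log2 fold change of 1.90 ± 0.23 (adjusted p = 0.00327). Of 14 fatty acid synthesis genes 5 fell and none rose, and without LLC library 4 9 fell and 1 rose. They included the desaturases, with Scd1 at 134 TPM in LLC and 170.5 TPM in control libraries (log2 fold change -0.35 ± 0.07) and Scd2 at 861 TPM in LLC and 1016 TPM in control libraries (log2 fold change -0.24 ± 0.06). The acetyl-CoA synthetase Acss2 was at 11.9 TPM in LLC and 16.3 TPM in control libraries (log2 fold change -0.43 ± 0.09). Fatty acid synthase (Fasn) had a log2 fold change of -0.18 ± 0.05 and did not pass, but was called lower without LLC library 4 (-0.22 ± 0.05, adjusted p = 0.00749). Acer2, a ceramidase that releases sphingosine (chromosome 4, 86874396 to 86934822), was the 1 riser among 19 sphingolipid genes, at 27.4, 28, 24.8 and 11.7 TPM in LLC libraries 1 to 4, against 4.05, 5.28, 4.45 and 4.33 TPM in control libraries 14 to 17. Its log2 fold change was 2.05 ± 0.23 (adjusted p = 0.00229), and the acid ceramidase Asah1 (-0.08 ± 0.04) did not pass. Of that list 1 gene fell, and without LLC library 4 2 rose and 2 fell, where 15.2% of all genes rose and 11.3% fell.

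The Hmgcs1 promoter is shown because it is the only one of the sterol enzyme windows that held the motif searched, the core of the sterol regulatory element, written as TCAC, any base and CCAC, on both strands. Windows were available for 15 of the 21 enzymes, and 152 of 10806 windows of tested genes held the core (1.41%). The stretch lies at chr13:119690179-119690257, plus strand, with the core in capitals.
Hmgcs1: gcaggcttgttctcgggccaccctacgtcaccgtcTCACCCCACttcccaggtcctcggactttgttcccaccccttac

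Some protein-folding genes also fell. Cryab, the small heat shock protein alpha B-crystallin of oligodendrocytes and astrocytes, was present at 96.9, 94.5, 89.5 and 154 TPM in LLC libraries 1 to 4, against 174, 189, 158 and 178 TPM in control libraries 14 to 17. LLC libraries 1 to 3 were within 8 TPM of each other, LLC library 4 was near the lowest control, and the log2 fold change was -0.71 ± 0.15 (adjusted p = 0.0217). Hsph1, a nucleotide exchange factor of HSP70, was at 89.5 TPM in LLC and 125 TPM in control libraries (log2 fold change -0.50 ± 0.11). Hspa4, another such factor, was at 125 TPM in LLC and 157 TPM in control libraries (log2 fold change -0.32 ± 0.06). Hspd1 and Hspe1, which together form the mitochondrial chaperonin, fell less, with Hspd1 at 171 TPM in LLC and 201 TPM in control libraries (log2 fold change -0.23 ± 0.05) and Hspe1 at 77.5 TPM in LLC and 88.9 TPM in control libraries (log2 fold change -0.20 ± 0.05). In all 9 of 23 heat shock genes fell and none rose, while the inducible genes Hspa1a (0.08 ± 0.05) and Hspa1b (0.13 ± 0.08) did not pass. Of 16 endoplasmic reticulum chaperones 1 fell, calnexin (Canx), at 196 TPM in LLC and 225 TPM in control libraries (log2 fold change -0.20 ± 0.05), and without LLC library 4 6 fell. LLC library 4, at 217 TPM, was inside the control range for Canx, which was called in 1 of the 8 leave-one-out fits. Hspd1 and Hspe1 start close together on opposite strands, and their windows share the heat shock element below, in which GAA, TTC and GAA (or the opposite strand) stand with 2 bases between them. Such an element was in 4 of 17 heat shock windows (23.5%) and in 63 of 10806 windows (0.583%). Both windows with the shared element are counted. The list was made of heat shock genes, so a share above that of all genes is no result about LLC. The stretch lies at chr1:55088024-55088111, plus strand, and its capitals run from 89 to 72 bases before the Hspe1 start, which is 144 to 127 bases before the Hspd1 start on the other strand.
Hspe1: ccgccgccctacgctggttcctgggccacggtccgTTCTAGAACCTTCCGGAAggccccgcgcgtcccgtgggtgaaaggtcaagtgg

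More oligodendrocyte genes fell than rose. Ugt8a, which makes the myelin galactolipids, was at 23.9 TPM in LLC and 40.9 TPM in control libraries (log2 fold change -0.79 ± 0.17). The myelin-associated glycoprotein Mag was at 84.9 TPM in LLC and 110.0 TPM in control libraries (log2 fold change -0.38 ± 0.07). The connexin Gjb1 was at 16.2 TPM in LLC and 20.4 TPM in control libraries (log2 fold change -0.31 ± 0.08). Klk6, a serine protease of mature oligodendrocytes (chromosome 7, 43824499 to 43832030), was present at 2.64, 2.42, 2.67 and 6.59 TPM in LLC libraries 1 to 4, against 7.51, 10.2, 7.46 and 8.28 TPM in control libraries 14 to 17. LLC libraries 1 to 3 had less than 3 TPM each and LLC library 4 had more, with a log2 fold change of -1.11 ± 0.23 (adjusted p = 0.0217) that became -1.38 ± 0.10 without LLC library 4. Mal, a proteolipid of compact myelin, went against this, at 307 TPM in LLC and 227 TPM in control libraries (log2 fold change 0.43 ± 0.09). Myelin basic protein (Mbp) had a log2 fold change of -0.09 ± 0.03 and did not pass. In all 7 of 20 members fell and 1 rose, and without LLC library 4 11 fell and 5 rose. The precursor markers Pdgfra and Cspg4 rose by small amounts. Pdgfra was at 22.9 TPM in LLC and 19.6 TPM in control libraries (log2 fold change 0.21 ± 0.05). Cspg4, which pericytes also express, was at 9.35 TPM in LLC and 7.85 TPM in control libraries (log2 fold change 0.23 ± 0.06). Ninj2, an adhesion protein of glia, was at 2.43 TPM in LLC and 4.68 TPM in control libraries (log2 fold change -0.74 ± 0.12), and was called in every leave-one-out fit.

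More astrocyte genes rose than fell with all libraries. Of 20 astrocyte genes 6 rose and 1 fell with all libraries, where 5.59% of all genes rose and 2.95% fell. Without LLC library 4 7 rose and 8 fell, where 15.2% of all genes rose and 11.3% fell. The median log2 fold change of the list was -0.04 with all libraries. Gjb6, the connexin 30 of astrocyte gap junctions, was present at 99.5, 101, 103 and 64.6 TPM in LLC libraries 1 to 4, against 49.1, 53.3, 54.9 and 62.7 TPM in control libraries 14 to 17. The log2 fold change was 0.71 ± 0.14 (adjusted p = 0.0189), with LLC library 4 just above the highest control. Aqp4, the water channel of endfeet at vessels, was present at 45.2, 49, 39.1 and 73.4 TPM in LLC libraries 1 to 4, against 78.3, 86.7, 74.4 and 78.9 TPM in control libraries 14 to 17. LLC library 4 was just under the lowest control, and the log2 fold change was -0.65 ± 0.15 (adjusted p = 0.0344) with it and -0.83 ± 0.07 without it. Vim, an intermediate filament of endothelial cells and reactive astrocytes, was at 77.1 TPM in LLC and 44.7 TPM in control libraries (log2 fold change 0.76 ± 0.11). Gfap, the filament used as a marker of reactive astrocytes, had a log2 fold change of -0.24 ± 0.08 and did not pass with all libraries (adjusted p = 0.0785), but was called lower without LLC library 4 (-0.32 ± 0.06, adjusted p = 0.00398). Glutamine synthetase (Glul) was at 1767 TPM in LLC and 1488 TPM in control libraries (log2 fold change 0.25 ± 0.07). The glutamate transporter Slc1a3 was at 271 TPM in LLC and 228 TPM in control libraries (log2 fold change 0.24 ± 0.06). Slc1a2 (-0.05 ± 0.07) did not pass. Of 16 genes listed for reactive astrocytes 8 rose and none fell (8 and 1 without LLC library 4), but several of them (Vim, Lcn2, Srgn and Emp1) are also expressed by endothelial or blood cells. Emp1, a membrane protein, was at 4.04 TPM in LLC and 2.04 TPM in control libraries (log2 fold change 0.72 ± 0.12). Myoc, a secreted olfactomedin protein of glia at the brain surface, was at 17 TPM in LLC and 33 TPM in control libraries (log2 fold change -0.95 ± 0.18). Tst, the mitochondrial sulfurtransferase rhodanese, was at 29 TPM in LLC and 53.4 TPM in control libraries (log2 fold change -0.90 ± 0.17). Apod, a lipid-binding lipocalin of glia and vessels, was at 463 TPM in LLC and 187 TPM in control libraries (log2 fold change 1.18 ± 0.29). LLC library 4, at 201 TPM, was inside the control range for Apod, which was called in 1 of the 8 leave-one-out fits. Fam107a, a stress-responsive protein of astrocytes, was at 597 TPM in LLC and 289 TPM in control libraries (log2 fold change 1.01 ± 0.15).

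Homeostatic microglial genes gave no call with all libraries and many without LLC library 4. P2ry12, the purinergic receptor of resting microglia, was present at 29.9, 35.6, 27.1 and 48 TPM in LLC libraries 1 to 4, against 46.9, 44.8, 48.7 and 51.1 TPM in control libraries 14 to 17. LLC libraries 1 to 3 were below all controls and LLC library 4 was inside their range. The gene did not pass with all libraries (log2 fold change -0.47 ± 0.14, adjusted p = 0.0653) and passed without it (-0.63 ± 0.08, adjusted p = 6.25e-04). Fcrls, a mouse microglial receptor, had 15.2, 18.8, 12.8 and 35.2 TPM in the LLC libraries and 32.8, 31.4, 28 and 29.7 TPM in the controls, with LLC library 4 the highest of the 8. Its log2 fold change was -0.65 ± 0.24 (adjusted p = 0.104) with that library and -0.94 ± 0.11 (adjusted p = 2.78e-04) without it. Over 14 members 0 fell with all libraries and 11 without LLC library 4, where 2.95% and 11.3% of all genes fell. With all libraries 8 members had an unadjusted p under 0.05 in limma, as did 4320 of all 14485 genes. The mean over the list was -0.39, -0.29, -0.54 and 0.11 in LLC libraries 1 to 4, against 0.05, -0.01, -0.07 and 0.03 in control libraries 14 to 17. The phagocytic genes Cd68 (0.16 ± 0.08) and Axl (-0.10 ± 0.05) did not pass with all libraries, and Axl was called lower without LLC library 4 (-0.14 ± 0.04, adjusted p = 0.0359). Lgals3, a galectin of activated microglia and macrophages, was at 2.44 TPM in LLC and 0.888 TPM in control libraries (log2 fold change 0.87 ± 0.11) and was the 1 called of 9 activation genes, of which 2 rose and 2 fell without LLC library 4. In that fit 15.2% of all genes rose and 11.3% fell. Lag3, an inhibitory receptor that microglia and neurons express, was at 6.48 TPM in LLC and 11 TPM in control libraries (log2 fold change -0.73 ± 0.18).

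Cytoskeletal genes of neurons fell, and synaptic and interneuron genes gave no calls with all libraries and some without LLC library 4. Tuba1a, the alpha-tubulin of neurons, was present at 1440.4, 1435, 1480.0 and 1838 TPM in LLC libraries 1 to 4, against 1958, 2097, 1912 and 1976 TPM in control libraries 14 to 17. The difference was the largest fall in mean TPM among called genes, with a log2 fold change of -0.37 ± 0.08 (adjusted p = 0.0221). The neuronal beta-tubulin Tubb3 was at 349.9 TPM in LLC and 476 TPM in control libraries (log2 fold change -0.46 ± 0.09). Its relative Tubb2a was at 634 TPM in LLC and 820.0 TPM in control libraries (log2 fold change -0.38 ± 0.07). The light neurofilament Nefl was at 339 TPM in LLC and 414 TPM in control libraries (log2 fold change -0.29 ± 0.06). Stathmin 1 (Stmn1), which binds free tubulin, was at 666 TPM in LLC and 839 TPM in control libraries (log2 fold change -0.34 ± 0.07). In all 15 of 21 members of the cytoskeletal list fell and none rose, with a median log2 fold change of -0.24, while the microtubule-associated protein tau (Mapt) had a log2 fold change of -0.08 ± 0.04 and did not pass. Mapt was called lower at -0.11 ± 0.03 (adjusted p = 0.0401) without LLC library 4. With all libraries 0 of 22 synaptic genes, 0 of 18 interneuron genes and 0 of 15 GABA receptor subunits were called by limma. Over all tested genes 8.54% were called, so lists of this size give few calls at that share. An unadjusted p under 0.05 was found for 4, 5 and 3 of them, and for 4320 of all 14485 genes. Without LLC library 4 the synaptic genes gave 0 rises and 5 falls, the interneuron genes 3 and 2, and the GABA subunits 0 and 5. In that fit 15.2% of all genes rose and 11.3% fell. The GABA-synthesising enzyme Gad1 had a log2 fold change of 0.10 ± 0.04, and Vip, a peptide of an interneuron class, 0.37 ± 0.12 (adjusted p = 0.0694) with all libraries and 0.52 ± 0.04 (adjusted p = 4.00e-05) without LLC library 4. Of the excitatory neuron and layer genes Camk2a, the kinase of excitatory synapses, was at 1345 TPM in LLC and 1175 TPM in control libraries (log2 fold change 0.20 ± 0.04). Neurod6, a transcription factor of cortical projection neurons, was at 67.6 TPM in LLC and 83.7 TPM in control libraries (log2 fold change -0.31 ± 0.06). Pcp4, a calmodulin-binding peptide of deep layers, was at 816 TPM in LLC and 1067 TPM in control libraries (log2 fold change -0.39 ± 0.06). Calm3, one of the calmodulin genes, was at 1444 TPM in LLC and 1617 TPM in control libraries (log2 fold change -0.16 ± 0.04). Tnnc1, the troponin C of heart and slow muscle, was at 6.65 TPM in LLC and 12.3 TPM in control libraries (log2 fold change -0.81 ± 0.12). Lxn, a carboxypeptidase inhibitor, was at 44.3 TPM in LLC and 56.4 TPM in control libraries (log2 fold change -0.34 ± 0.05). Pgm2l1, which makes glucose 1,6-bisphosphate, was at 135 TPM in LLC and 163 TPM in control libraries (log2 fold change -0.26 ± 0.04). Pmepa1, an antagonist of TGF-beta signalling, was at 26.5 TPM in LLC and 32 TPM in control libraries (log2 fold change -0.27 ± 0.04). Tnnc1, Lxn, Pgm2l1 and Pmepa1 were each called in every leave-one-out fit.

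Of the neuropeptide precursors 2 of 21 fell and none rose, and without LLC library 4 5 fell and 1 rose. Those that fell with all libraries were cholecystokinin (Cck), at 669 TPM in LLC and 845 TPM in control libraries (log2 fold change -0.34 ± 0.08), and chromogranin A (Chga), a protein of secretory granules, at 176 TPM in LLC and 222 TPM in control libraries (log2 fold change -0.34 ± 0.06). Among receptors the somatostatin receptor Sstr2 was present at 20.1, 19.7, 23.7 and 22.1 TPM in LLC libraries 1 to 4, against 26.2, 32.6, 30.2 and 29.7 TPM in control libraries 14 to 17. All LLC libraries were below all controls with a log2 fold change of -0.45 ± 0.07 (adjusted p = 0.0113). The beta-1 adrenergic receptor Adrb1 was at 24.4 TPM in LLC and 32.8 TPM in control libraries (log2 fold change -0.41 ± 0.06), and was called in every leave-one-out fit. Gipr, the receptor of the gut incretin GIP, was present at 4.37, 3.85, 4.72 and 1.8 TPM in LLC libraries 1 to 4, against 1.66, 1.48, 1.49 and 1.34 TPM in control libraries 14 to 17. LLC library 4 was close to the controls, and the log2 fold change was 0.86 ± 0.19 with it and 1.09 ± 0.09 without it. Mc4r, the melanocortin receptor that restrains feeding, had a log2 fold change of 0.33 ± 0.15 and did not pass with all libraries (adjusted p = 0.171), but was called higher without LLC library 4 (0.48 ± 0.09, adjusted p = 0.00514). Activity-dependent genes had wide spreads in both groups. Arc, a synaptic protein induced by activity, was present at 69.5, 127, 57.6 and 93.9 TPM in LLC libraries 1 to 4, against 125, 279, 227 and 137 TPM in control libraries 14 to 17. The control libraries spanned more than a 2-fold range and overlapped the LLC libraries, and the call (log2 fold change -1.12 ± 0.29, adjusted p = 0.0425) was kept in 2 of the 8 leave-one-out fits. Fos had 10.7, 29.2, 12.3 and 16.8 TPM in the LLC libraries and 21.2, 55.1, 42.9 and 27.8 TPM in the controls, and did not pass (adjusted p = 0.0689). Nptx2, a secreted pentraxin that gathers AMPA receptors, was at 41.3 TPM in LLC and 52.8 TPM in control libraries (log2 fold change -0.35 ± 0.06), and was called in every leave-one-out fit, as was Ier5, an early response gene, at 62.1 TPM in LLC and 87.9 TPM in control libraries (log2 fold change -0.50 ± 0.07). Of 21 immediate early genes 2 fell and none rose.

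Mitochondrial and ribosomal genes mostly had small fold changes. Uqcrb, a subunit of complex III, was present at 189.8, 198, 185 and 208 TPM in LLC libraries 1 to 4, against 249.6, 230.4, 238 and 244 TPM in control libraries 14 to 17. Its log2 fold change was -0.30 ± 0.04 (adjusted p = 0.00668), and no LLC library overlapped a control. Of 83 nuclear-encoded respiratory genes 14 fell and none rose, where 2.95% of all genes fell and 5.59% rose. Their median log2 fold change was -0.08, and without LLC library 4 25 fell and 3 rose. None of the 13 genes of the mitochondrial genome was called. Of these 4 had an unadjusted p under 0.05 in limma, as did 4320 of all 14485 genes, and without LLC library 4 1 rose and 1 fell. The ribosomal proteins gave 2 rises and 0 falls among 76 with all libraries, and 15 and 2 without LLC library 4, where 15.2% of all genes rose and 11.3% fell. The ferritin chains that store iron rose, with Fth1 at 6003 TPM in LLC and 5024 TPM in control libraries (log2 fold change 0.25 ± 0.07) and Ftl1 at 797 TPM in LLC and 673 TPM in control libraries (log2 fold change 0.24 ± 0.05). Pmaip1, the cell death protein NOXA and a p53 target, was at 4.59 TPM in LLC and 2.48 TPM in control libraries (log2 fold change 0.68 ± 0.11). Bax (0.05 ± 0.04) and Mdm2 (0.03 ± 0.05) did not pass.

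The difference between LLC and control in neocortex was then set against that in the hippocampus and cerebellum of the same series, 8 libraries each. Against hippocampus 0 of 14152 genes (0.0%) differed in the LLC effect, with 271 at an unadjusted p under 0.05 in limma. That is a smaller share than a threshold of 0.05 gives where no effect differs. The absence of calls does not show that the effects were equal. The smallest p values there were those of Prss23, a serine protease, with the more positive effect in neocortex (0.18 in neocortex and -0.32 in hippocampus), and of Glis3, a zinc finger factor, with the more negative one (0.10 in neocortex and 0.75 in hippocampus), and neither passed. Within neocortex Prss23 was not called with all libraries (adjusted p = 0.0727) and was without LLC library 4 (0.20 ± 0.06, adjusted p = 0.0299). Against cerebellum 89 of 13783 genes differed (0.646%), 78 of them with the more positive effect in neocortex, and 266 did (232 positive) when the shared library number was kept as a block. The count was 147 without cerebellar LLC library 1 and 287 without LLC library 4 of every region, 2 fits added after seeing the data. Without neocortex LLC library 1 or 2 it was 29 and 22, and without neocortex control library 14, 15, 16 or 17 it was 36, 42, 28 and 29. All differences named here as called were also called without cerebellar LLC library 1, with 1.77 for Plcxd3 and 1.46 for Lcor there. Vim had a log2 fold change of 0.76 in neocortex and -0.21 in cerebellum, a difference of 0.97 ± 0.15 (adjusted p = 0.00385). Plcxd3 and Lcor, a nuclear receptor corepressor, had the largest positive differences among those named by the rule, 1.99 ± 0.31 for Plcxd3 and 1.74 ± 0.29 for Lcor, with neocortical log2 fold changes of -0.11 and -0.01. Klf10 had -0.81 in neocortex and 0.19 in cerebellum, a difference of -1.01 ± 0.14 (adjusted p = 0.00226). Hes5 had -0.91 in neocortex and 0.18 in cerebellum, a difference of -1.09 ± 0.24 (adjusted p = 0.036). Gda, the guanine deaminase of neurons, had -0.14 in neocortex and 0.88 in cerebellum, and Ier5 had -0.50 and 0.38 in the same order, each with a called difference. Gda had -0.18 ± 0.03 in neocortex without LLC library 4 (adjusted p = 0.00398), against -0.14 ± 0.04 with it, which did not pass there (adjusted p = 0.0647). Tnnc1 (-1.19 ± 0.25) and Tigd3 (-0.62 ± 0.12) also had more negative effects in neocortex. Of the genes with the more positive neocortical effect and the smallest p, Bmpr2, a BMP receptor, had 0.03 in neocortex and -0.46 in cerebellum, and the histone chaperone Asf1a had 0.05 in neocortex and -0.53 in cerebellum, where the neocortical values were near 0. The sterol enzyme Hmgcs1 had -0.71 in neocortex and -0.54 in cerebellum, and Vwf had 2.54 in neocortex and 2.04 in cerebellum, and neither difference passed. With the shared library number as a block, 6 other named genes differed from cerebellum, Adrb1, Clu, Gpx3, Ifi30, Tek and Tubb3.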

How the data were processed

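Per the labels, neocortex was lysed in Trizol, and its polyadenylated RNA went into stranded TruSeq libraries that a NovaSeq read. The authors deposited 1 table of TPM values for 24 libraries, of which the 8 neocortex libraries were compared and the 16 others used only for differences between regions. Per the submitters' processing notes the build is mm10. The sources used here give no aligner, counter or annotation. TPM keeps no read number, so the depth is unknown, and a rise of abundant transcripts lowers the values of the rest. No pair of libraries was identical, and 24698 symbols were at 0 in all 8. Coordinates come from GENCODE M21 on mm10, in which 94.6% of symbols matched 1 gene.

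The two-sided test was that of limma 3.58.1 (R 4.3.3) with trended eBayes, run on log2(TPM + 1) with Benjamini-Hochberg adjustment at 0.05. A fold change is on that scale and understates low genes. Values after ± are standard errors of log2 fold changes, with n = 4 per group. The scripts were tested on simulated data. For differences between regions, all 24 libraries entered 1 fit and the interaction was tested. Across regions the labels do not say whether a library number marks the same animal. Deviations of same-numbered neocortex and cerebellum libraries from their group means correlated at 0.12, 0.18, 0.22 and 0.49 for LLC and 0.29, 0.22, 0.14 and 0.29 for control libraries. With hippocampus the values were 0.06, -0.1, 0.35 and 0.65 for LLC and 0.11, -0.06, -0.06 and 0.17 for control libraries. Libraries of unlike number were not compared across regions, so these values cannot show that a number marks 1 animal. The fits with the number as a block, over all 24 libraries, assume such a pairing.

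Named genes were, per direction, the 15 with the largest fold change among called genes whose groups did not overlap, the 10 with the largest difference in mean TPM, the 15 with the smallest p among those called in every leave-one-out fit, called members of the gene lists, members of ordered pathways, and, between regions, those with the smallest p. Predicted genes and pseudogenes were left out, and some genes that the rule allows are not reported here. The comparison, the 76 lists and the named genes were chosen with earlier results of these data known, and some genes sit on several lists. Promoter windows and their sequences come from RefSeq on GRCm38.p6. Alternatives were another pseudocount, filter, scaling, variance model and block, and leaving out each library. The fits without LLC library 4 in every region, without cerebellar LLC library 1, and with median-ratio scaling and without LLC library 4 together, and the list counts without LLC library 4, were added after seeing the data.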

Additional observations from a re-analysis of the deposited data

Results flagged for a closer look

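In 452 groups of 4 values, 38 had 1 library far from the other 3, where chance alone flags about 1 in 20 groups. LLC library 4 was that library in 23, other LLC libraries in 3 and controls in 12. LLC library 4 lay apart upward from the other LLC libraries in sterol and lipid genes, with 253 TPM for Hmgcs1, 25.1 for Mvd, 31.4 for Sqle, 39.3 for Cyp51, 21.9 for Dhcr7, 79.9 for Fasn and 970.0 for Scd2. It did so in glial and chaperone genes, with 6.59 TPM for Klk6, 21.5 for Hes5, 154 for Cryab, 25.9 for Myoc, 43.5 for Tst and 10.4 for Lag3. It did so too for Stmn1 (797 TPM), Tuba1a (1840.0 TPM) and Ighm (49.1 TPM). It lay apart downward for Alas2 (18.3 TPM), Gjb6 (64.6), Gpx3 (14.1), Icam2 (5.58), Mfsd2a (20.8), Nos3 (9.13) and Vegfa (50.5).

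Single other libraries lay apart for Apoe in LLC library 1 (1610.0 TPM), Lcn2 in LLC library 2 (8.9 TPM) and Plcxd3 in LLC library 3 (5.18 TPM). Control library 14 did so for Emp1 (1.56 TPM), Hr (17.04), Hspa1a (12.8), Nr3c2 (23.8), Pdk1 (27.7) and Tubb2a (779). Control library 15 did so for Cxcl12 (25.8 TPM), Gda (179), Hspa4 (167) and Tigd3 (3.73). Control library 17 did so for Dll4 (1.54 TPM) and Ly6a (66.4 TPM).

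The LLC effect differed between neocortex and cerebellum by a limma interaction test for 12 named genes without the library number as a block. With it as a block the same 12 and 6 more were called, which were Adrb1 (-0.60, adjusted p = 0.028), Clu (0.24, adjusted p = 0.0337), Gpx3 (-1.83, adjusted p = 0.0411), Ifi30 (0.58, adjusted p = 0.0305), Tek (0.35, adjusted p = 0.0414) and Tubb3 (-0.67, adjusted p = 0.0305), the differences being those of the fit without the block. For the 12 the difference, neocortex minus cerebellum on the log2 scale, was 1.99 for Plcxd3, 1.74 for Lcor, 0.97 for Vim, 0.58 for Asf1a, 0.49 for Bmpr2 and 0.37 for the efflux pump Abcb1a. It was -1.19 for Tnnc1, -1.09 for Hes5, -1.02 for Gda, -1.01 for Klf10, -0.88 for Ier5 and -0.62 for Tigd3.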

How the results depend on the processing

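Counts of genes called kept within 1.5 times the reported 1237 with a pseudocount of 0.1, a filter at a mean of 5 TPM, median-ratio scaling, quantile normalization, robust eBayes and removal of the trend with GC content and length (1055 to 1334). They were 577 with no filter, which tests 22945 genes, 4337 with library weights, and 784 with all 24 libraries in 1 fit. Leaving out each library gave 187 to 3834, and leaving out LLC library 4 with median-ratio scaling gave 3868. The cause of these shifts was not tested. The replicate number in the descriptions as a block gave 641 calls. Same-numbered LLC and control neocortex libraries correlated at -0.10 to 0.06 in their deviations, and those of unlike number at -0.08 to 0.11. So few values near 0 cannot show whether the number marks a pairing. The effect differed from hippocampus for 2 genes with no filter and for 0 under all other alternatives run, the replicate block included. Against cerebellum the 89 genes became 49 with no filter, 2052 with library weights, 266 with the replicate block, 22 to 102 without each neocortex library, 287 without LLC library 4 in every region and 147 without cerebellar LLC library 1. The haemoglobin difference was 2.69 to 3.38 without each library (exact permutation p of 0.0286 to 0.0571).

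Of 168 called genes named, 0 changed sign under any alternative run. No filter lost 57 calls, all 24 libraries in 1 fit 48, the replicate block 31, quantile normalization 16, GC content and length 12, robust eBayes 7, and median-ratio scaling 3. Leaving out 1 library lost 0 to 95. Of 58 genes named as not called, 22 were called without LLC library 4. The value of Lcor, not called, changed sign to 0.02 with library weights, and ranged from -0.05 to 0.02 without each library, above 0 without LLC library 3 or 4 or control library 15 or 16. That of Serping1 ranged from -0.01 (without LLC library 1) to 0.19. TPM holds no read numbers, so low genes such as Il6 cannot be given a detection limit.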
